A study of Mus musculus with 48 samples.

Results

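Bcl6, Cux2, Trim24 and Tox encode transcriptional regulators of the sex-biased liver, and their RNA was measured in the livers of 48 mice. The 4 genes were chosen by name, as regulators tied to growth-hormone-patterned expression in mouse liver, and their symbols were matched to Ensembl identifiers among the 55414 genes of the count table (Bcl6, ENSMUSG00000022508; Cux2, ENSMUSG00000042589; Trim24, ENSMUSG00000029833; Tox, ENSMUSG00000041272). All 4 passed the filter on low counts that left 15414 genes for testing.

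The mice were of the FCG model, a cross of core genotypes that separates gonad from sex chromosomes, on a C57BL/6 background, in which Sry, the gene that makes a gonad a testis, is deleted from the Y chromosome and may be supplied by a transgene on an autosome. The genotypes were XX and XY- (both with ovaries, Ov) and XX;SryTg and XY-;SryTg (both with testes, Te), so that the type of gonad and the sex chromosome complement vary separately. Mice of each genotype either kept their gonads (Intact) or were gonadectomized at 75 days of age (GDX), which gave 8 groups of 6 mice with 1 liver library per mouse. All mice ate a high-fat diet (HFD) from 15 to 17 weeks of age, per the labels for 11 weeks in the Intact mice and for 15 weeks in the GDX mice. The study's methods give other durations, also longer for the GDX mice. GDX therefore cannot be told apart from the longer diet, or from the older age at its end, wherever GDX and Intact mice are compared. The same holds for a difference between their libraries in reads outside genes, given below. The XX Te mice carry no Y chromosome beyond the Sry transgene, and no group without the diet was analysed here.

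In rodents, growth hormone reaches the liver in pulses in males and more continuously in females, and the difference is set by gonadal hormones. The hormone acts through its receptor and the kinase JAK2 on the transcription factor STAT5, and the 2 patterns maintain different sets of liver genes. BCL6, a zinc finger repressor that is higher in male liver, binds sites resembling those of STAT5 and represses female-biased genes. CUX2, a homeodomain repressor largely limited to female liver, represses male-biased genes. TRIM24 is a coregulator of nuclear receptors that restrains retinoic acid signalling in liver. TOX is an HMG-box DNA-binding protein best known from developing and exhausted T cells, and a role as a repressor in hepatocytes is less well established than for the other 3.

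The promoter windows of Bcl6 and Cux2 are given because STAT5, BCL6 and CUX2 are themselves DNA-binding proteins of this circuit. RefSeq windows on the GRCm38.p6 build, each holding 250 bases before and 50 bases after an annotated start, were searched on both strands for 3 motifs. These were TTCNNNGAA, the palindrome bound by STAT5 and resembling BCL6 sites, ATCGAT, a core bound by CUX proteins, and the palindrome of the androgen receptor type. Bcl6 had 2 windows, on the minus strand of chromosome 16 at chr16:23988803-23989102 (window 1) and chr16:23981234-23981533 (window 2). Capitals mark TTCNNNGAA.
Bcl6 window 1: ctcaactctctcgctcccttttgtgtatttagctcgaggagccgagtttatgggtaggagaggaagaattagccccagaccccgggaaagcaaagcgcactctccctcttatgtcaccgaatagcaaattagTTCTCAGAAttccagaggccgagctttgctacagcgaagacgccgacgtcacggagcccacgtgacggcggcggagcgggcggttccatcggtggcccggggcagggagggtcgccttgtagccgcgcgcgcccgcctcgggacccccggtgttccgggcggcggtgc
Bcl6 window 2: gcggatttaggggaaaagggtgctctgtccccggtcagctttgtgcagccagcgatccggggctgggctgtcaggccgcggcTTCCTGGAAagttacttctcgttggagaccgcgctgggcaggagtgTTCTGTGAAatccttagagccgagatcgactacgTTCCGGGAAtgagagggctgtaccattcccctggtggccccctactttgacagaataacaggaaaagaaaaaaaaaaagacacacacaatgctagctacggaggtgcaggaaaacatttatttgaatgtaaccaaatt
Window 1 held 1 match, at -118 from the start, and window 2 held 3 matches, at -168, -122 and -88. Of the 32851 windows searched, 8.3% held TTCNNNGAA at least once, and 11 windows (0.0335%) held it 3 or more times. The search left out the windows of 1 autosome and windows of any other length.

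Cux2 had 2 windows on the minus strand of chromosome 5, at chr5:122049802-122050101 (window 1) and chr5:122047776-122048075 (window 2). Capitals in window 2 mark ATCGAT, at -72 from the start, a motif that 0.925% of the searched windows held.
Cux2 window 2: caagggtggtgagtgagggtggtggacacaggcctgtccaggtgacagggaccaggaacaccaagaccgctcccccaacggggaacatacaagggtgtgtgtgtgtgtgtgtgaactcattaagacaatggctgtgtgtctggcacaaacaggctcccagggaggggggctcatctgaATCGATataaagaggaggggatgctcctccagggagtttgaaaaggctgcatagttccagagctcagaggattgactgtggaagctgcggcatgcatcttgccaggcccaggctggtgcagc
No match to the 3 motifs stood in Cux2 window 1 or in the 2 windows of Trim24 on the plus strand of chromosome 6, at chr6:37870561-37870860 and chr6:37900237-37900536. The androgen receptor palindrome, present in 0.475% of the searched windows, matched none of the windows of these genes. A match is only a run of letters, and binding was not measured in these livers. For Tox only the name is given.

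Each library held between 13071874 and 20045141 reads on genes (median 16577748), so that a count of 3 reads corresponded to 0.15 to 0.23 CPM (counts divided by the reads on genes of the library and scaled to 1000000). Reads outside annotated genes made up 3.47% to 6.2% of all reads of a library in Intact mice and 8.52% to 11.3% in GDX mice. These ranges did not overlap, so GDX cannot be told apart from this difference either. The summed level of 9 hepatocyte markers lay between 71500 and 135000 CPM. Xist lay between 123 and 1140 CPM in XX mice and between 0.352 and 8.36 CPM in XY mice. The Y genes Ddx3y, Kdm5d, Uty and Eif2s3y were highest, among XX mice, in XX Te Intact replicate 4, where Ddx3y was at 3.82 CPM against at least 46.0 CPM in every XY mouse. That mouse also had the highest Cux2 of its group, 1.97 CPM, and whether the 2 values are related was not tested. Xist and the Y genes otherwise followed the labels.

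**Figure D1:**
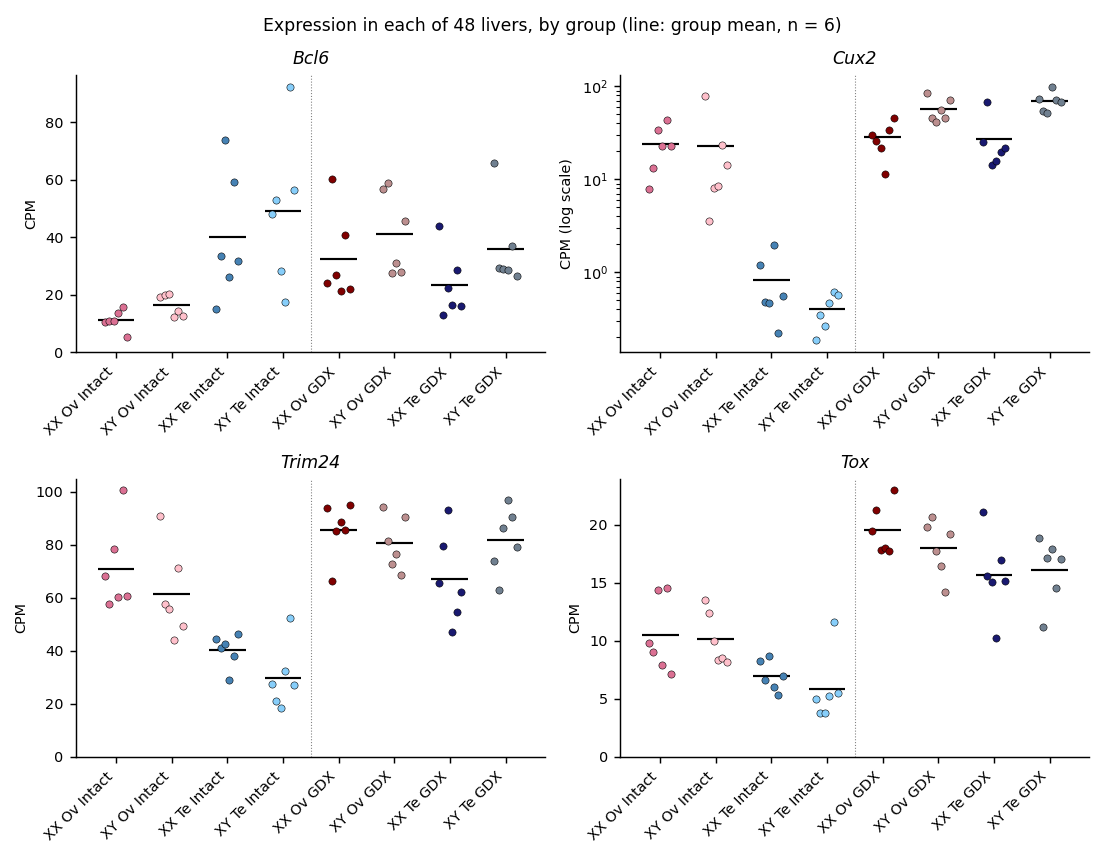
CPM of Bcl6, Cux2, Trim24 and Tox (vertical axes, linear except for Cux2, which is logarithmic) in each of 48 livers (points), by group of 6 mice, with the group mean as a line and Intact groups left of the dotted line. Cux2 of every Te Intact mouse lies at or below 1.97 CPM, below every other mouse, and Bcl6 is lowest in the Ov Intact groups.

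Cux2 showed the widest range of the 4 genes, from 0.189 to 97.8 CPM. In Te Intact mice it was almost silent, with lowest, median and highest values of 0.223, 0.518 and 1.97 CPM in XX Te Intact and of 0.189, 0.406 and 0.618 CPM in XY Te Intact, or 3 to 32 reads per library. The corresponding values were 7.8, 22.7 and 43.7 CPM in XX Ov Intact and 3.55, 11.2 and 78.0 CPM in XY Ov Intact. Each of the 12 Ov Intact mice was above each of the 12 Te Intact mice. Such a lack of overlap occurred in 0.551% of all tested genes in this comparison.

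The gonadal effect (Ov Intact against Te Intact, both chromosome complements together) on Cux2 was a log2 fold change of 5.31 (SE 0.44, adjusted p = 6.06e-13 by the edgeR quasi-likelihood test), or 39.7-fold. In XX mice alone it was 4.95 (SE 0.59, adjusted p = 5.05e-08), and in XY mice alone 5.67 (SE 0.65, adjusted p = 1.42e-08). The difference between the 2, -0.72 (SE 0.92, adjusted p = 0.885), did not pass the test.

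After GDX, Cux2 was present in mice of both former gonads. In XX Te GDX the lowest, median and highest values were 14.3, 20.7 and 67.1 CPM, and in XY Te GDX 51.6, 69.1 and 97.8 CPM. The Ov GDX groups had 11.4, 28.2 and 45.4 CPM (XX) and 41.7, 50.8 and 84.7 CPM (XY). Each of the 12 Te GDX mice was above each of the 12 Te Intact mice, a separation found in 5.4% of tested genes. The castration effect (Te GDX against Te Intact) on Cux2 was 6.04 on the log2 scale (SE 0.44, adjusted p = 1.82e-14), or 65.6-fold. Ovariectomized mice differed from Ov Intact mice by 0.59 (SE 0.32, adjusted p = 0.0933), which did not pass. That value rested on XY Ov Intact replicate 1, whose 78.0 CPM stood apart from the next highest of the group at 23.2 CPM, and without it the difference was 1.04 (adjusted p = 0.00108). The castration effect exceeded the ovariectomy effect by 5.45 (SE 0.54, adjusted p = 1.08e-09).

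The 8 group means of Cux2, in descending order, were 69.0 ± 16.6 CPM (SD, n = 6) in XY Te GDX, 57.4 ± 17.0 in XY Ov GDX, 28.2 ± 11.5 in XX Ov GDX, 27.3 ± 19.9 in XX Te GDX, 24.0 ± 13.1 in XX Ov Intact, 22.6 ± 28.0 in XY Ov Intact, 0.817 ± 0.656 in XX Te Intact and 0.407 ± 0.17 in XY Te Intact. Of the 7 pairs of neighbours in this order, 2 differed in a two-sided exact permutation test with adjustment over the 7 pairs. In that exact test XY Ov GDX was above XX Ov GDX (p = 0.00433, adjusted p = 0.0152), and XY Ov Intact was above XX Te Intact (p = 0.00216, the smallest that 6 against 6 mice can give, adjusted p = 0.0152). The other neighbours, XX Te GDX and XX Ov Intact among them (adjusted p = 0.946, exact test), did not differ beyond their spread.

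Cux2 also differed by chromosome complement in GDX mice. There XX mice lay below XY mice by -0.99 (SE 0.32, adjusted p = 0.0121), with 10 of 12 XX GDX mice below every XY GDX mouse, in a comparison that called 34.3% of all tested genes. In Intact mice the difference was 0.52 (SE 0.46, adjusted p = 0.537), where 10.7% of tested genes were called. The change of the chromosomal effect with GDX, -1.51 (SE 0.56), did not pass (adjusted p = 0.148, with 2.12% of tested genes called, 327 genes, and 115 to 748 when 1 mouse was left out), but did without XY Ov Intact replicate 1 (-1.97, adjusted p = 0.0257) and in the DESeq2 Wald test (-1.57, adjusted p = 0.0355). These contrasts were added after the values had been seen. Over Intact and GDX mice together, 9 of 9 tested neutrophil markers were also higher in XY mice. So were 7 of 9 macrophage, 8 of 13 T cell and 6 of 10 B cell markers. No marker of these lists was called lower in XY mice. That comparison called 36.7% of all tested genes, with 14.8% higher in XY mice. Median summed neutrophil levels were 5.39 CPM in XX and 60.5 CPM in XY mice. They were 4.71 and 52.6 CPM in GDX mice and 7.41 and 87.0 CPM in Intact mice. The part of these cells in the Cux2 difference was not tested.

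**Figure D2:**
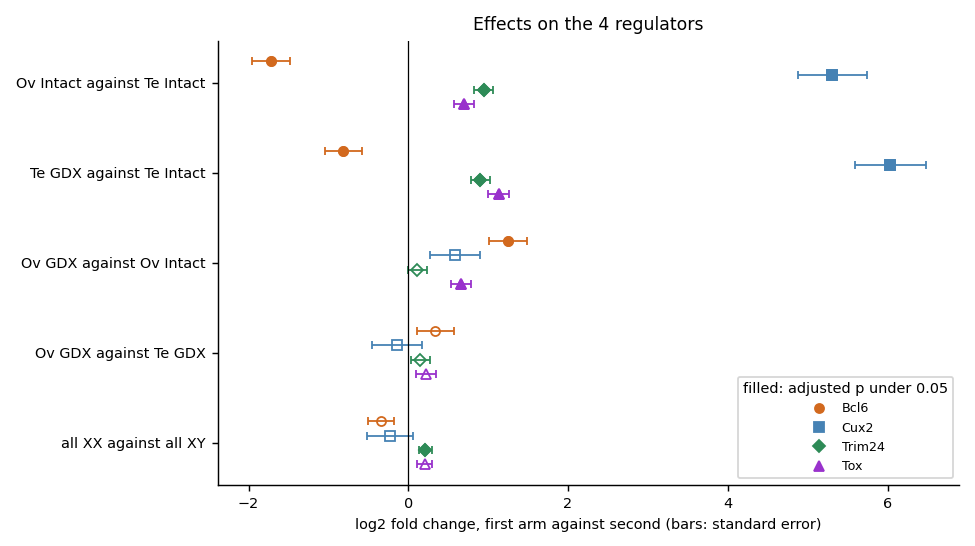
Log2 fold change of each gene (horizontal axis, with standard error) in 5 comparisons of the 48 livers, filled where the adjusted p was under 0.05. Cux2 lies at 5.31 for Ov Intact against Te Intact and at 6.04 for Te GDX against Te Intact, Bcl6 is negative in both, and no gene is filled for Ov GDX against Te GDX.

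Bcl6 ran the other way. Its lowest, median and highest values were 5.41, 10.8 and 15.6 CPM in XX Ov Intact and 12.3, 16.8 and 20.3 CPM in XY Ov Intact. In Te Intact mice they were 15.1, 32.6 and 73.8 CPM (XX) and 17.3, 50.6 and 92.2 CPM (XY). The Te Intact mice thus covered a wide range, and 10 of 12 of them were above every Ov Intact mouse. Bcl6 was lower in Ov Intact than in Te Intact mice by -1.72 on the log2 scale (SE 0.24, adjusted p = 3.86e-07), or 3.30-fold lower. The difference was -1.80 (SE 0.34, adjusted p = 0.000269) in XX mice and -1.64 (SE 0.33, adjusted p = 0.00059) in XY mice, and the 2 did not differ detectably (-0.16, SE 0.46, adjusted p = 0.945).

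Between GDX and Intact mice, Bcl6 differed in opposite directions in the 2 gonadal types. In Ov GDX mice the lowest, median and highest values were 21.1, 25.4 and 60.3 CPM (XX) and 27.7, 38.2 and 58.8 CPM (XY). All 12 Ov GDX mice were above all 12 Ov Intact mice, as in 9.41% of tested genes in this comparison, and the ovariectomy effect was 1.25 (SE 0.23, adjusted p = 1.15e-05), or 2.38-fold. In Te GDX mice the values were 13.1, 19.3 and 44.0 CPM (XX) and 26.6, 29.2 and 65.6 CPM (XY). The castration effect on Bcl6 was -0.82 (SE 0.23, adjusted p = 0.00226), although the ranges of Te GDX and Te Intact mice largely overlapped. The castration effect minus the ovariectomy effect was -2.06 (SE 0.33, adjusted p = 3.74e-05).

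By group mean, Bcl6 was ordered from 49.2 ± 26.0 CPM (SD, n = 6) in XY Te Intact through 41.3 ± 14.4 in XY Ov GDX, 39.9 ± 22.0 in XX Te Intact, 36.0 ± 14.9 in XY Te GDX, 32.6 ± 15.4 in XX Ov GDX, 23.4 ± 11.5 in XX Te GDX and 16.5 ± 3.76 in XY Ov Intact to 11.1 ± 3.48 in XX Ov Intact. No pair of neighbours differed beyond its spread after adjustment. The lowest p, 0.0325 in the exact permutation test (adjusted p = 0.227), was for the last pair. Macrophage markers summed to a median of 903 CPM in Ov Intact and 458 CPM in Te Intact mice and B cell markers to 38.4 and 17.7 CPM, the opposite order to Bcl6. In Ov GDX mice, where Bcl6 was higher than in Ov Intact mice, the B cell median was 67.7 CPM and the macrophage median 637 CPM. The median of 9 stellate cell markers was 462 CPM, against 350 CPM in Ov Intact mice. In the ovariectomy effect 3 of 10 B cell markers were called higher and 2 lower (50%). Of the stellate cell markers 5 were higher and 1 lower (66.7%). Of all tested genes 69.4% were called there, 36% higher and 33.4% lower. The part of these cells in the ovariectomy effect on Bcl6 was not tested.

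**Figure D3:**
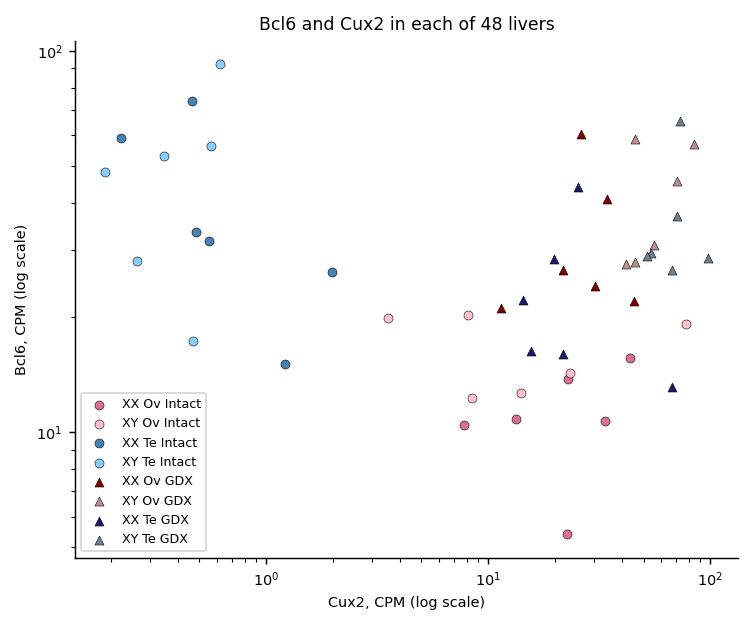
CPM of Bcl6 (vertical, log scale) against CPM of Cux2 (horizontal, log scale) in each of 48 livers, circles for Intact and triangles for GDX mice. Te Intact mice lie at the left with 15.1 to 92.2 CPM of Bcl6, Ov Intact mice lie lower with at most 20.3 CPM, and GDX mice carry 11.4 CPM of Cux2 or more together with 13.1 to 65.6 CPM of Bcl6.

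Te Intact mice had at most 1.97 CPM of Cux2, Ov Intact mice at most 20.3 CPM of Bcl6, and the 24 GDX mice at least 11.4 CPM of Cux2 and at least 13.1 CPM of Bcl6. Some Ov Intact mice also lay above both of the latter limits, among them XY Ov Intact replicate 1 with 78.0 CPM of Cux2 and 19.2 CPM of Bcl6. Over all 48 mice Pearson's r of log2 CPM between the genes was -0.375, and after subtraction of group means it was -0.100. These are descriptions over mice that share groups.

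Trim24 had 281 to 1944 reads per library. Its lowest, median and highest values were 57.7, 64.4 and 101 CPM in XX Ov Intact and 44.2, 56.7 and 91.0 CPM in XY Ov Intact. In Te Intact mice they were 29.1, 41.8 and 46.4 CPM (XX) and 18.4, 27.3 and 52.3 CPM (XY). The ranges met at their edges, with 10 of 12 Ov Intact mice above every Te Intact mouse. Trim24 was higher in Ov Intact mice by 0.94 (SE 0.12, adjusted p = 5.91e-08), or 1.92-fold, with 0.90 (SE 0.17, adjusted p = 0.000265) in XX mice and 0.99 (SE 0.17, adjusted p = 5.2e-05) in XY mice.

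The castration effect on Trim24 was 0.90 (SE 0.12, adjusted p = 3.23e-08), and 11 of 12 Te GDX mice were above every Te Intact mouse. The lowest, median and highest values were 47.1, 63.9 and 93.2 CPM in XX Te GDX and 62.9, 82.8 and 97.0 CPM in XY Te GDX. Values in Ov GDX mice were 66.3, 87.1 and 95.0 CPM (XX) and 68.6, 79.0 and 94.2 CPM (XY), and the ovariectomy effect of 0.11 (SE 0.12, adjusted p = 0.395) did not pass. It did pass when counts were scaled by library totals alone (0.33, adjusted p = 0.0203), a scaling that shifted the median of all genes by 0.21 in this comparison. The 2 removals differed in their effect on Trim24 by 0.79 (SE 0.17, adjusted p = 0.00204).

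The group means of Trim24 fell from 85.8 ± 10.4 CPM (SD, n = 6) in XX Ov GDX, 81.6 ± 12.2 in XY Te GDX and 80.6 ± 10.04 in XY Ov GDX to 71.0 ± 16.4 in XX Ov Intact, 67.1 ± 16.8 in XX Te GDX, 61.5 ± 17.1 in XY Ov Intact, 40.3 ± 6.19 in XX Te Intact and 29.7 ± 12.1 in XY Te Intact. This order is for CPM on library totals. With the TMM scaling used for the edgeR tests, the mean was 70.2 CPM in XY Ov GDX. That was below XX Ov Intact, at 78.9 CPM on that scale. The step from XY Ov Intact to XX Te Intact passed the exact permutation test (p = 0.00649, adjusted p = 0.0455), and the other 6 neighbouring pairs did not. Trim24 was also slightly higher in all XX than in all XY mice (0.21, SE 0.08, adjusted p = 0.0392), a call lost in 21 of the 48 fits that each left out 1 mouse and under other scalings, and 36.7% of all tested genes were called in that comparison. The other 3 genes did not pass there, with -0.34 (SE 0.16, adjusted p = 0.1) for Bcl6, -0.23 (SE 0.29, adjusted p = 0.565) for Cux2 and 0.20 (SE 0.09, adjusted p = 0.0701) for Tox.

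Tox had 54 to 378 reads per library and was called higher in GDX than in Intact mice of either gonadal type. Its lowest, median and highest values were 7.09, 9.43 and 14.5 CPM in XX Ov Intact and 8.2, 9.26 and 13.5 CPM in XY Ov Intact. In Te Intact mice they were 5.29, 6.77 and 8.7 CPM (XX) and 3.73, 5.08 and 11.6 CPM (XY). The groups overlapped, with 4 of 12 Ov Intact mice above every Te Intact mouse and 9 of 12 Te Intact mice below every Ov Intact mouse. The gonadal effect was 0.70 (SE 0.13, adjusted p = 8.04e-05), or 1.62-fold. It was 0.67 (SE 0.18, adjusted p = 0.0185) in XX mice and 0.73 (SE 0.18, adjusted p = 0.00468) in XY mice, and the call in XX mice was lost without XX Te Intact replicate 5 (0.61, adjusted p = 0.0546) and with library totals (0.59, adjusted p = 0.0908). With only the arms compared in the fit, neither passed (0.63, adjusted p = 0.146, in XX and 0.75, adjusted p = 0.0701, in XY mice).

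After GDX the lowest, median and highest values of Tox were 17.7, 18.7 and 23.0 CPM in XX Ov GDX and 14.2, 18.5 and 20.7 CPM in XY Ov GDX. Te GDX mice had 10.2, 15.3 and 21.1 CPM (XX) and 11.2, 17.1 and 18.9 CPM (XY). In CPM on library totals, 11 of the 12 Ov GDX mice were above every Ov Intact mouse. Of the 12 Te GDX mice, 10 were above every Te Intact mouse. With the TMM scaling used for the edgeR tests, the highest Ov Intact mouse was at 15.93 CPM. XY Ov GDX replicates 3, 4 and 5 lay below it, at 15.18, 13.94 and 12.55 CPM. The count of Te GDX mice did not change. The ovariectomy effect was 0.66 (SE 0.13, adjusted p = 1.51e-05) and the castration effect 1.13 (SE 0.13, adjusted p = 1.52e-09). Their difference of 0.48 (SE 0.18) did not pass (adjusted p = 0.103), but did without XY Te Intact replicate 5 (0.61, adjusted p = 0.0153), whose 11.6 CPM stood apart from the next highest of its group at 5.44 CPM.

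The group means of Tox were 19.6 ± 2.17 CPM (SD, n = 6) in XX Ov GDX, 18.0 ± 2.43 in XY Ov GDX, 16.1 ± 2.82 in XY Te GDX, 15.7 ± 3.52 in XX Te GDX, 10.5 ± 3.22 in XX Ov Intact, 10.2 ± 2.29 in XY Ov Intact, 6.96 ± 1.31 in XX Te Intact and 5.8 ± 2.96 in XY Te Intact. All 4 GDX means were above all 4 Intact means. No neighbouring pair passed after adjustment, and the steps from XX Te GDX to XX Ov Intact and from XY Ov Intact to XX Te Intact both had an adjusted p of 0.0606 in the exact test.

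T cells also make Tox, and whole liver cannot tell fewer cells of a type from less RNA per cell. All 13 tested T cell markers were called in the gonadal effect (against 25.3% of all tested genes), 12 higher in Ov Intact mice and Cd4 lower. The sum of the 17 listed markers ranged from 12.7 to 38.0 CPM in Ov Intact mice and from 6.41 to 15.1 CPM in Te Intact mice. In the castration effect 3 of the 13 were higher and none lower (23.1%, against 63.3% of all genes). In the ovariectomy effect 7 of the 13 were lower and none higher (53.8%, against 69.4% of all genes). The median sums were 18.2 CPM in Ov Intact and 14.4 CPM in Ov GDX mice, while Tox was higher in Ov GDX mice. Each of the 17 markers was above 0 in at least 1 mouse of all groups except Cd5, at 0 in every XY Te Intact mouse. Of 7 tested markers of natural killer and innate lymphoid cells, 5 were higher in the gonadal effect (71.4%, against 25.3% of all genes). In the ovariectomy effect 6 were lower (85.7%, against 69.4%). Their median sums were 7.42 CPM in Ov Intact, 4.99 in Te Intact, 4.14 in Ov GDX and 5.34 in Te GDX mice. Stellate cell markers were higher in 5 of 9 in the castration effect, as Tox was, where 33.4% of all genes were called higher. In the ovariectomy effect 5 were higher and 1 lower, against 36% and 33.4% of all genes. Called in either direction, they made up 55.6% (castration) and 66.7% (ovariectomy), against 63.3% and 69.4% of all genes. Their median sums were 350 CPM in Ov Intact and 462 in Ov GDX, and 282 in Te Intact and 418 in Te GDX mice. The part of these cells in the effects on Tox was not tested.

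**Figure D4:**
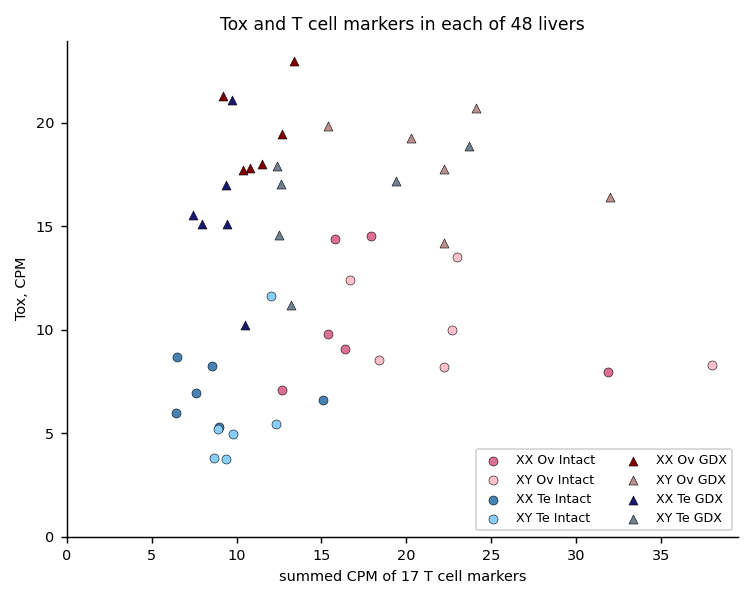
CPM of Tox (vertical) against the summed CPM of 17 T cell markers (horizontal) in each of 48 livers, circles for Intact and triangles for GDX mice. The Te GDX mice lie at 10.2 CPM of Tox or more, with marker sums from 7.42 to 23.7 CPM, and the Te Intact mice mostly lie lower, with sums from 6.41 to 15.1 CPM.

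All 4 genes were thus called in the gonadal effect, in which 25.3% of tested genes were called. All 4 were also called in the castration effect, among 63.3% of tested genes, and 2 of 4 in the ovariectomy effect, among 69.4%. In the difference between the 2 removals 3 of 4 were called, against 5.6% of all tested genes (863 genes, and 656 to 1863 when 1 mouse was left out, the highest without XX Ov Intact replicate 3). By its definition that difference equals the gonadal effect minus the same comparison among GDX mice. It is therefore not separate from the gonadal effect. The calls within XX and within XY mice, 4 of 4 in each, stood against 5.82% and 15.5%, with the Tox calls lost in the fits named above. The 4 genes were chosen as regulators of the sex-biased liver, with earlier results of these data known. Their counts of calls are therefore no independent evidence.

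Among GDX mice, none of the 4 passed the test for a difference by the gonad that had been removed, with log2 differences (Ov GDX against Te GDX) of 0.34 (SE 0.23) for Bcl6, -0.14 (SE 0.31) for Cux2, 0.15 (SE 0.12) for Trim24 and 0.22 (SE 0.12) for Tox, each with an adjusted p of 1. Only 14 of the 15414 genes (0.0908%) were called there. Of the sex-biased genes listed below, 5 of 25 female-biased ones (20%) were higher in Ov GDX mice and 2 of 28 male-biased ones (7.14%) lower. For the 4 regulators the absence of a call does not show that the levels were equal. No gene of the table was called for a gonadal effect that differed between XX and XY mice by the edgeR test, 989 genes had an unadjusted p under 0.05 and DESeq2 called 2.

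The growth hormone pathway was described with a list of 18 genes, of which 17 were tested. In the gonadal effect 4 were higher in Ov Intact mice and 2 lower (35.3% called, against 25.3% of all genes), with a list median of 0.21 against 0.04 over all genes. The leptin receptor Lepr (1.67, adjusted p = 8.49e-05) and the prolactin receptor Prlr (1.15, adjusted p = 5.94e-08) were the highest of those called. The phosphatase gene Ptpn11 (-0.27, adjusted p = 0.0166) and the growth hormone receptor Ghr (-0.23, adjusted p = 0.0332) were the lowest of those called. Cish, a STAT5 target that restrains the receptor, was higher by 0.85 (adjusted p = 0.0439). Stat5b was at -0.08 (adjusted p = 0.394), Igf1 at -0.02 (adjusted p = 0.876) and Socs2, another feedback inhibitor, at 0.39 (adjusted p = 0.194), none of which passed.

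In the castration effect 9 of the 17 were higher and 1 lower (58.8%, against 63.3% of all genes). Prlr rose by 1.44 (adjusted p = 9.77e-11) and Cish by 1.43 (adjusted p = 0.000142), Stat5b by 0.27 (adjusted p = 0.000715) and Igf1 by 0.26 (adjusted p = 0.0102). Ghr was the lower one, at -0.58 (adjusted p = 1.34e-07), and Socs2 was at 0.40 (adjusted p = 0.113). In the ovariectomy effect 8 were higher and 3 lower (64.7%, against 69.4% of all genes), Ghr again lower at -0.36 (adjusted p = 0.000194).

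**Figure D5:**
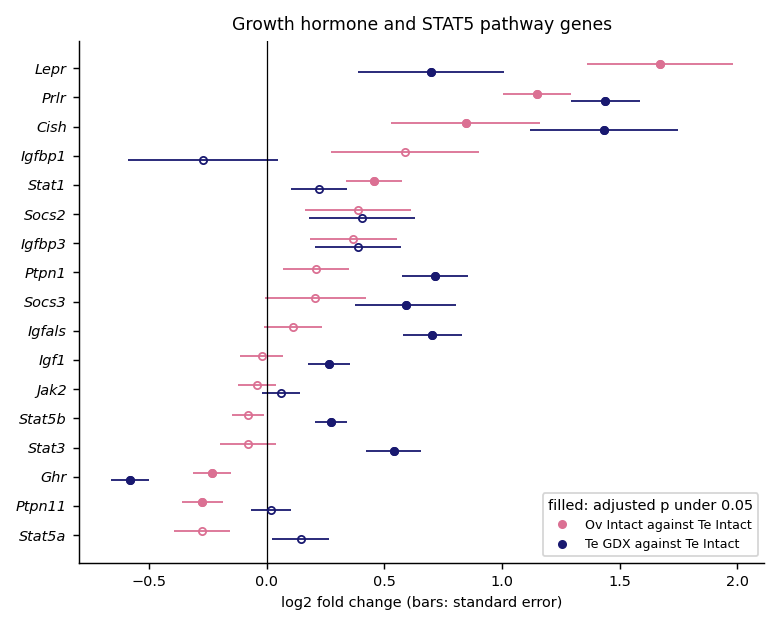
Log2 fold change with standard error (horizontal axis) of 17 growth hormone and STAT5 pathway genes for Ov Intact against Te Intact (pink) and for Te GDX against Te Intact (dark blue), filled where the adjusted p was under 0.05. Lepr, Prlr and Cish lie highest in the first comparison, at 1.67, 1.15 and 0.85, and Ghr lies below 0 in both.

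Of 20 transcription factors known to act beside these regulators in hepatocytes, 3 were higher and 7 lower in Ov Intact mice (50% called, against 25.3% of all genes), with a list median of -0.23 against 0.04 over all genes. Those 10 calls became 5 with scaling by library totals and 2 with only the arms compared in the fit. Esr1, the estrogen receptor, was higher by 1.02 (adjusted p = 4.86e-08) and Nr1i3, the xenobiotic receptor CAR, by 0.45 (adjusted p = 0.0117). The zinc finger gene Zbtb20 was at -0.61 (adjusted p = 0.00225), and Cux1, the broadly expressed relative of Cux2, at -0.49 (adjusted p = 0.00223). Under castration 10 were higher and 2 lower (60%, against 63.3% of all genes), Esr1 (1.52, adjusted p = 8.18e-13) at the top and Foxa3 (-0.72, adjusted p = 1.52e-07) and Id2 (-0.58, adjusted p = 0.000672) at the bottom.

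Of 14 corepressors and chromatin modifiers, 2 were higher and 2 lower in Ov Intact mice (28.6%, against 25.3% of all genes), with Ezh2, a Polycomb methyltransferase, at 0.30 (adjusted p = 0.01), the deacetylase Hdac1 at 0.20 (adjusted p = 0.0478), and the nuclear receptor corepressor Ncor1 at -0.30 (adjusted p = 0.0453). In the castration effect 6 were higher and 3 lower (64.3%, against 63.3% of all genes), with Trim28 at 0.45 (adjusted p = 9.12e-08), Eed at -0.42 (adjusted p = 4.45e-05) and Suz12 at -0.29 (adjusted p = 3.78e-06).

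Of 8 relatives of the 4 genes 6 were tested. In the gonadal effect only Cux1 was called (16.7%, against 25.3% of all genes). It was lower in Ov Intact mice and so opposite in direction to Cux2. That call was lost with only the arms compared in the fit. Bcl6b (0.13, adjusted p = 0.604), Trim28 (0.08, adjusted p = 0.339), Trim33 (0.05, adjusted p = 0.612), Tox2 (-0.17, adjusted p = 0.808) and Tox4 (0.13, adjusted p = 0.156) did not pass. Under castration Trim28 and Tox2 (0.96, adjusted p = 0.0342) were higher and Tox4 lower (-0.33, adjusted p = 8.28e-05). These calls were 50% of the tested relatives, against 63.3% of all genes. Trim66 and Tox3 did not pass the filter on low counts.

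Genes known for sex-biased expression in mouse liver were listed as the setting in which BCL6 and CUX2 act. All 25 tested female-biased genes were higher in Ov Intact mice (list median 4.86, in a comparison that called 25.3% of all genes). Sult2a2 (8.05, adjusted p = 1.75e-09) and A1bg (7.94, adjusted p = 9.14e-13) were so the most. All 28 tested male-biased genes were lower (list median -2.69), with Cyp4a12b at -8.16 (adjusted p = 1.98e-15) and Hsd3b5, a steroid dehydrogenase, at -7.24 (adjusted p = 5.83e-12). In the castration effect 21 of the 25 were higher (84%, against 63.3% of all genes), Cyp2b13 by 6.11 (adjusted p = 1.21e-18). There 27 of the 28 were lower (96.4%), with Hsd3b5 at -8.03 (adjusted p = 1.47e-12) and Mup7 at -7.80 (adjusted p = 1.57e-13). The ovariectomy effect had mixed directions, with 4 female-biased genes higher and 11 lower and 4 male-biased genes higher and 12 lower. These calls were 60% and 57.1% of the tested genes of the 2 lists, against 69.4% of all genes. Members of the Cyp2b, Cyp4a12, Sult2a and Mup families share near-identical sequence, and their separate values are uncertain. The lists were drawn up from genes known to differ by sex, so their direction here is no independent evidence.

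Across the 48 mice, the tested genes whose log2 CPM followed each regulator most closely, among 12156 genes with a mean of at least 0 on that scale, were as follows. For Cux2 they were Cyp2b13 (Pearson's r 0.940), Slc22a26 (0.931) and Fmo2 (0.921). For Trim24 they were Fmo4 (0.902), Fam84b (0.891) and Acot4 (0.890), and for Tox they were Abcb1a (0.936), Fmo2 (0.914) and Ildr2 (0.900). Bcl6 had lower coefficients, with Egfr (0.689), Tacc1 (0.615) and Lama3 (0.595). Among the 4 genes, Trim24 and Tox were the most alike, with an r of 0.847 over all mice and 0.658 after subtraction of group means. These coefficients describe mice that share groups. They span Intact and GDX mice, which differed in weeks of diet, and libraries of differing depth.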

How the data were processed

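Liver RNA of 48 FCG mice was sequenced with 1 library per mouse (total RNA, KAPA mRNA HyperPrep kit per the labels). The deposited values are raw read counts per Ensembl gene, which per the submitters' processing notes and the study's methods the authors obtained with STAR 2.7.10a on GRCm39. DESeq2 1.36.0 is also named in those notes. The annotation release, strand setting and trimming are not given in the sources used here. The authors applied no normalization to these counts.

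The last 4 lines of the table, which count reads on no single gene, were left out of totals and tests. Symbols were matched to 31020 of the 55414 Ensembl identifiers, and no column was without a sample. Genes kept by filterByExpr (15414) were fitted with edgeR 4.0.16 (R 4.3.3, TMM scaling, robust quasi-likelihood, 8 group means, all 48 mice); p-values were adjusted by Benjamini and Hochberg's method across the tested genes, with a threshold of 0.05. CPM are counts scaled to 1000000 reads on genes. Levels of neighbouring groups were compared by exact permutation tests in scipy 1.17.1. Log2 CPM for correlations used a prior count of 2. Each mouse is a separate animal, and replicate numbers only name mice. Pairs of mice within a group, 120 in all, differed beyond sampling noise.

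Alternatives were DESeq2 1.42.0 (size factors, and its Wald test), scaling by library totals, 2 other filters on low counts, 1 surrogate variable from sva 3.50.0, a fit of the arms compared alone, and fits that each lacked 1 mouse. On data simulated for the castration effect, 195 of 196 tested genes changed 4-fold were recovered, with 6 false calls among 15076 genes. Only 200 genes were changed there, with no other difference between groups, while the real castration effect called 63.3% of tested genes. The simulated rates therefore do not carry over to the real data or to smaller effects.

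The 4 genes and all gene lists were chosen with earlier results of these data known. The genes named from a list are at most the 2 highest and 2 lowest called ones in the gonadal and castration effects, with the relatives, Stat5b, Ghr, Socs2, Cish and Igf1 by name, and for each regulator the 3 genes of highest Pearson's r. Some genes that this rule names are not reported here. Chromosomal effects within Intact and GDX mice, and their difference, were added after the values had been seen. In the NCBIM37 annotation, Gm15637 and Gm11802 lie antisense to Cux2 and Tox, and held at most 1 and 4 reads in any library.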

Additional observations from a re-analysis of the deposited data

Results flagged for a closer look

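In 5 of 32 groups of 6 mice, the highest or lowest mouse stood apart from the others by Dixon's test (critical value 0.625), which chance gives in about 1 of 20 groups. For Bcl6 this was XY Te GDX replicate 1, at 65.6 CPM against 36.8 CPM for the next mouse. For Cux2 it was XY Ov Intact replicate 1, at 78.0 CPM against 23.2 CPM, and XX Te GDX replicate 2, at 67.1 CPM against 25.3 CPM. For Trim24 it was XX Ov GDX replicate 2, the lowest of its group at 66.3 CPM against 85.3 CPM. For Tox it was XY Te Intact replicate 5, at 11.6 CPM against 5.44 CPM. That mouse also had the highest Bcl6 (92.2 CPM) and Trim24 (52.3 CPM) of its group, and XY Ov Intact replicate 1 also had the highest Trim24 (91.0 CPM) and Tox (13.5 CPM) of its own.

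The castration effect differed from the ovariectomy effect, when tested as a difference in edgeR, for Bcl6 (-2.06, adjusted p = 3.74e-05), Cux2 (5.45, adjusted p = 1.08e-09) and Trim24 (0.79, adjusted p = 0.00204). This difference contains the gonadal effect by definition and is not a separate result.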

How the results depend on the processing

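No effect on the 4 genes changed direction past the threshold under any alternative, and the gonadal and castration calls over both chromosome complements held in every fit made. Of 312 values under settings other than leaving out a mouse, 292 kept their side of the threshold. The causes of the changes below were not tested. Values are log2 fold changes with the adjusted p in parentheses.

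With library totals, Tox in XX mice (gonadal effect) was 0.59 (adjusted p = 0.0908), the chromosomal effect on Bcl6 -0.46 (0.0399) and on Trim24 0.11 (0.398), the ovariectomy effect on Trim24 0.33 (0.0203) and on Cux2 0.79 (0.0247), and Trim24 by chromosome in Intact mice 0.32 (0.138). Library totals moved the median of all genes by 0.21 in the ovariectomy effect and 0.20 in the castration effect. The chromosomal effect on Trim24 was 0.19 with DESeq2 size factors (0.0677), 0.19 in the DESeq2 Wald test (0.0616), 0.17 without a filter (0.197) and 0.18 with at least 10 counts in every mouse (0.088). In Intact mice alone it was 0.35 (0.0476), and 0.34 (0.0549) with DESeq2 size factors, 0.34 (0.102) without a filter, 0.33 (0.0793) with at least 10 counts and 0.33 (0.222) with only the arms compared. The Wald test gave -1.57 (0.0355) for the change of the chromosomal effect on Cux2 with GDX. With 1 surrogate variable, Tox was 0.21 (0.0286) by chromosome, 0.27 (0.0433) by chromosome after GDX and 0.59 (0.0183) for castration minus ovariectomy. With only the arms compared, the gonadal effect on Tox was 0.63 (0.146) in XX and 0.75 (0.0701) in XY mice. Cux2, with 3 counts in its lowest mouse, was outside the fit with at least 10 counts in every mouse, and contrasts of all 8 groups have no smaller set of arms.

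Leaving out each mouse gave -0.41 to -0.28 for the chromosomal effect on Bcl6 (called without XX Ov GDX replicate 2, XX Te GDX replicate 1 or XX Te Intact replicate 3), 0.15 to 0.26 on Trim24 and 0.14 to 0.27 on Tox (called without XX Ov Intact replicate 4, XX Te GDX replicate 4, XY Ov Intact replicate 1 or XY Te Intact replicate 5). It gave 0.30 to 0.44 for Trim24 by chromosome in Intact mice (lost in 31 of 48 fits), 0.47 to 1.04 for the ovariectomy effect on Cux2, -1.97 to -1.27 for the change of its chromosomal effect with GDX, 0.42 to 0.61 for castration minus ovariectomy on Tox, and 0.55 to 0.76 for the gonadal effect on Tox in XX mice.

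With only the arms compared, counts of called genes moved from 3907 to 1694 in the gonadal effect, from 897 to 236 in XX and from 2395 to 837 in XY mice, from 1648 to 819 by chromosome in Intact mice, and from 14 to 33 by former gonad. DESeq2 called 25 of the latter, and 661 instead of 327 genes for the chromosomal effect changing with GDX (545 with library totals). Without a filter 597 genes were called in XX mice and 506 instead of 863 for castration minus ovariectomy. With at least 10 counts 1575 were called in XY mice, 7 by former gonad, 940 by chromosome in Intact and 3491 instead of 5288 in GDX mice, and with the surrogate variable 3648 in XY mice and 2570 by chromosome in Intact mice. Among the growth hormone pathway genes 6 calls in the gonadal effect became 3 with only the arms, and 11 in the ovariectomy effect became 7 with the surrogate variable. Among the transcription factors 10 calls in the gonadal effect became 5 with library totals and 2 with only the arms, and among the corepressors 4 became 2 and 1, and 0 without a filter. Among the relatives of the 4 genes the 1 call in the gonadal effect became 0 with only the arms. With library totals their 3 calls in the castration effect became 6, and 0 in the chromosomal effect became 1. Leaving out single mice moved the count of the gonadal effect between 3078 and 5624, in XX mice between 598 and 2930 and for castration minus ovariectomy between 656 and 1863 (both highest without XX Ov Intact replicate 3), and for the chromosomal effect changing with GDX between 115 (without XX Te Intact replicate 2) and 748 (without XX Ov Intact replicate 6). No paired analysis was possible because each mouse carries its own identifier and no replicate number is shared between groups by the labels.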
